A study of Caenorhabditis elegans with 20 samples.

Results

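The libraries described here hold RNA of whole Caenorhabditis elegans, the input set aside before translating ribosome affinity purification (TRAP), which purifies tagged ribosomes of a single cell type from a lysate. They were chosen as the input RPKM columns (reads scaled by transcript length and library size) of the 5 deposited tables, with no TRAP column, and make up 10 of the 20 libraries of the series. There were 2 input replicates of each of 5 strains, called here by the cell type that each was made to purify: muscle (JAC127), intestine (JAC382), neuronal (JAC126), serotonin (JAC433) and dopamine (JAC379). The transgene and promoter of each strain are not given in the sources used here. All 5 strains were grown alike, at 22 °C on OP50-1 bacteria after synchronisation by bleaching, and were collected as L4 larvae, the last larval stage, 46 to 48 h past release from L1 arrest. The labels call the RNA polyA+ from whole animals. The tables' titles call the replicates biological, but no source says whether they came from separate cultures, so every p-value below measures only the spread between these libraries.

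Reads in listed genes ranged from 4.46 M in neuronal replicate 1 to 239.7 M in dopamine replicate 1, and the tables listed between 10484 genes in muscle replicate 1 and 16424 in dopamine replicate 1. Every gene a table listed reached 1 RPKM in its TRAP or input fraction, and 9896 of 18917 genes were listed in all 10 inputs. All 25 body wall muscle markers were listed in each library, 23 to 25 of 25 intestine markers and 15 to 22 of 22 pan-neuronal markers. Listing can come from the TRAP fraction alone, so input levels are given too. Summed input RPKM of body wall muscle markers was 14941 to 21475 over the libraries. It was 4135 to 17455 for intestine markers and 122 to 920 for pan-neuronal markers. The gene of highest RPKM in every library was F54D7.7 (RefSeq symbol rpl-41.2), a small ribosomal protein gene, at 14202 RPKM in intestine replicate 1 to 136076 RPKM in neuronal replicate 2. Muscle replicate 1 and neuronal replicate 2 stood apart from the other 8 libraries in the makeup of their RNA, as given with the ribosomal protein genes below, and the muscle calls, list medians and gene differences are given with and without them.

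A larva of this species builds a new cuticle before each moult, and the epidermis switches its many collagen genes on and off in waves through that cycle. The last moult leads to the adult, in which the epidermis makes adult collagens such as COL-19 and the intestine makes vitellogenins, the yolk proteins taken up by oocytes. The hermaphrodite germ line makes sperm in the L4 stage and turns to oocytes afterwards, so collagen, yolk, sperm and oocyte transcripts are known as signs of stage in a whole-animal sample.

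The 10 libraries did not pair by strain. Over the 9896 genes listed throughout, Pearson r of log2(RPKM + 1) between the 2 replicates of a strain was 0.839 in neuronal to 0.90 in serotonin, while it spanned 0.670 to 0.989 over the 40 pairs of different strains. None of the 10 libraries had its own replicate as its nearest neighbour. Muscle replicate 1 and neuronal replicate 2 were the closest pair by r (0.989), yet they differed beyond counting noise, with a median chi-square of 4.03 per gene (1 degree of freedom). By the standard deviation of the rescaled log2 difference, intestine replicate 2 and serotonin replicate 2 were slightly closer (0.4305 against 0.4418). Intestine replicate 2, serotonin replicate 2 and dopamine replicate 2 correlated at 0.972 to 0.975 with each other. Intestine replicate 1 lay nearest to neuronal replicate 1 (r = 0.934), serotonin replicate 1 to dopamine replicate 1 (r = 0.914), and muscle replicate 2 to neuronal replicate 1 (r = 0.872). These correlations share each library's depth and composition and are given as a description. The median gene had a standard deviation between replicates of a strain of 0.87 (log2 units) as deposited and 0.61 rescaled.

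**Figure D1:**
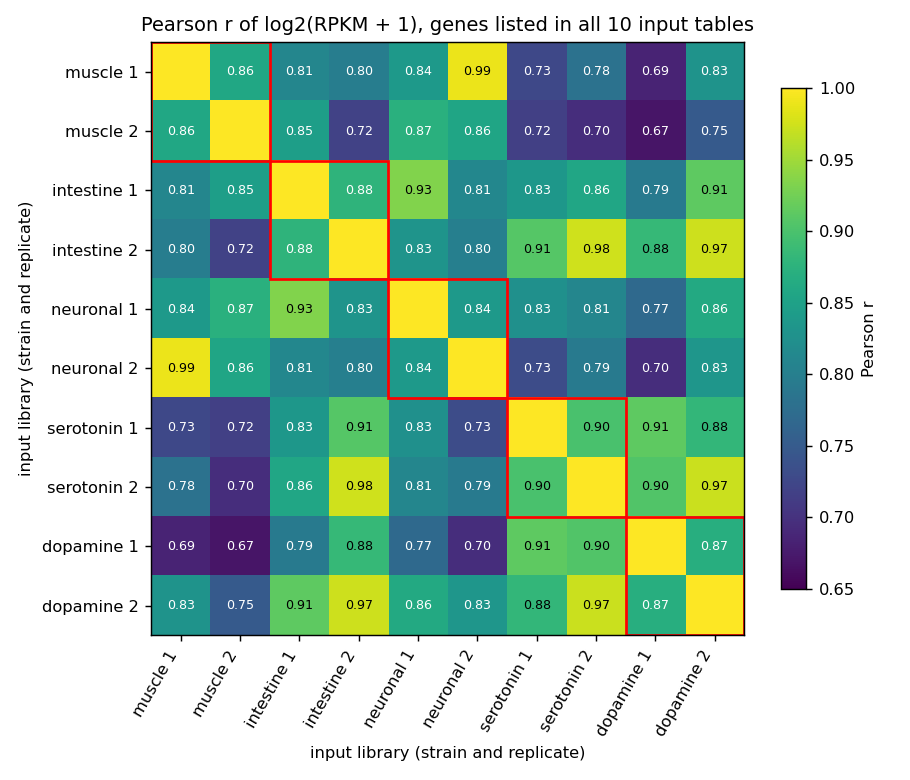
Pearson r of log2(RPKM + 1) between the 10 input libraries (both axes: strain and replicate) over 9896 genes. Red squares enclose the replicates of 1 strain, and the highest value off the diagonal, 0.989, joins muscle replicate 1 to neuronal replicate 2.

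Yolk genes differed widely between the replicates of 4 strains. The summed level of the 6 vitellogenin genes, vit-1 to vit-6, was 1.09 and 336 RPKM in muscle replicates 1 and 2, 1326 and 14.9 for intestine, 1132 and 1.65 for neuronal, 311 and 7.79 for serotonin and 23.3 and 31 for dopamine. It was above 300 RPKM in 4 libraries of 4 strains, and in muscle, intestine, neuronal and serotonin the other replicate of the same strain was below 16 RPKM. vit-2 alone read 0.484 and 121 RPKM in muscle replicates 1 and 2, 534 and 2.48 for intestine, 419 and 0.482 for neuronal, 119.5 and 1.18 for serotonin and 9.92 and 6.69 for dopamine. On the log2(RPKM + 1) scale replicate 2 minus replicate 1 of vit-2 was 6.36 in muscle, -7.26 in intestine, -8.15 in neuronal and -5.79 in serotonin, and -0.51 in dopamine. vit-6, on another chromosome, had the same 4 libraries on top, with 0.609 and 87.9 RPKM in muscle replicates 1 and 2, 366 and 5.65 for intestine, 433 and 0.82 for neuronal, 128 and 2.69 for serotonin and 9.07 and 11.9 for dopamine. The vit-3, vit-4 and vit-5 genes are close copies whose reads counting may split, so their sum is safer than their single values. Neither vit-2 (limma F test over the 5 strains, adjusted p = 0.9998) nor vit-6 (limma, adjusted p = 0.995) passed a test of a strain difference. In these whole-animal libraries, fewer expressing cells and less RNA per cell cannot be told apart, for yolk or any gene below.

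col-19, the adult collagen gene of the epidermis, split the libraries as yolk did. It read 7.69 and 354 RPKM in muscle replicates 1 and 2, 1388 and 11.5 for intestine, 2543 and 9.22 for neuronal, 439 and 1.95 for serotonin and 69.5 and 30.9 for dopamine. The 4 libraries above 300 RPKM were those with high yolk, muscle replicate 2, intestine replicate 1, neuronal replicate 1 and serotonin replicate 1, and dopamine replicate 1 came next. col-124, col-81 and col-129, cuticle collagens with no listed stage, were highest in the same 4 libraries, with neuronal replicate 1 first. col-124 read 13.9 and 412 RPKM in muscle replicates 1 and 2, 3319 and 34.8 for intestine, 6277 and 12.7 for neuronal, 1181 and 11 for serotonin and 192 and 86.2 for dopamine. col-19 (adjusted p = 0.996) and col-124 (adjusted p = 0.997) passed no test of a strain difference (limma F test).

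Oocyte genes were high in the same libraries, with muscle replicate 2 first. The 37 oocyte and eggshell genes summed to 1247 and 6307 RPKM in muscle replicates 1 and 2, 3515 and 851 for intestine, 4352 and 1067 for neuronal, 3813 and 867 for serotonin and 1662 and 1234 for dopamine. The order was not that of yolk: muscle replicate 2 had the highest oocyte sum and the third yolk sum. Rescaling divides each library by its relative log expression factor, the median ratio of its genes to their mean over the libraries, and after it muscle replicate 1 and neuronal replicate 2 came to 3977 and 3871 RPKM, near the 3952 RPKM of neuronal replicate 1; cey-2, a cold-shock domain protein gene of the germ line, was the largest part of both. puf-5, which codes for an RNA-binding repressor in growing oocytes, read 10.6 and 207 RPKM in muscle replicates 1 and 2, 60 and 1.71 for intestine, 109 and 5.7 for neuronal, 22.1 and 0.911 for serotonin and 9.27 and 3.29 for dopamine. oma-2, needed for oocyte maturation, read 1.6 and 116 RPKM in muscle replicates 1 and 2, 59 and 2.21 for intestine, 55 and 1.63 for neuronal, 34.7 and 1.62 for serotonin and 6.39 and 4.16 for dopamine. rme-2, the yolk receptor of oocytes, ran from 2.42 RPKM in serotonin replicate 2 to 109 RPKM in muscle replicate 2 with a median of 15. Serotonin replicate 1 and intestine replicate 1 led perm-2 and perm-4, genes of the outer layers of the eggshell: perm-4 read 2.13 and 34.1 RPKM in muscle replicates 1 and 2, 284 and 56.5 for intestine, 199.9 and 2.28 for neuronal, 638 and 68.5 for serotonin and 158 and 112 for dopamine. Among the 31 oocyte and eggshell genes listed in all 10, 25 were over 2-fold higher in replicate 2 than in replicate 1 of muscle after rescaling, against 30, 25 and 28 over 2-fold lower in replicate 2 of intestine, neuronal and serotonin; dopamine had 3 higher and 5 lower. Over all 9896 genes those shares were 17% higher in muscle and 13.6%, 20.7% and 10.1% lower in intestine, neuronal and serotonin. No oocyte or eggshell gene of the 31 tested differed among strains (limma F test, 2.16% of all genes called).

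**Figure D2:**
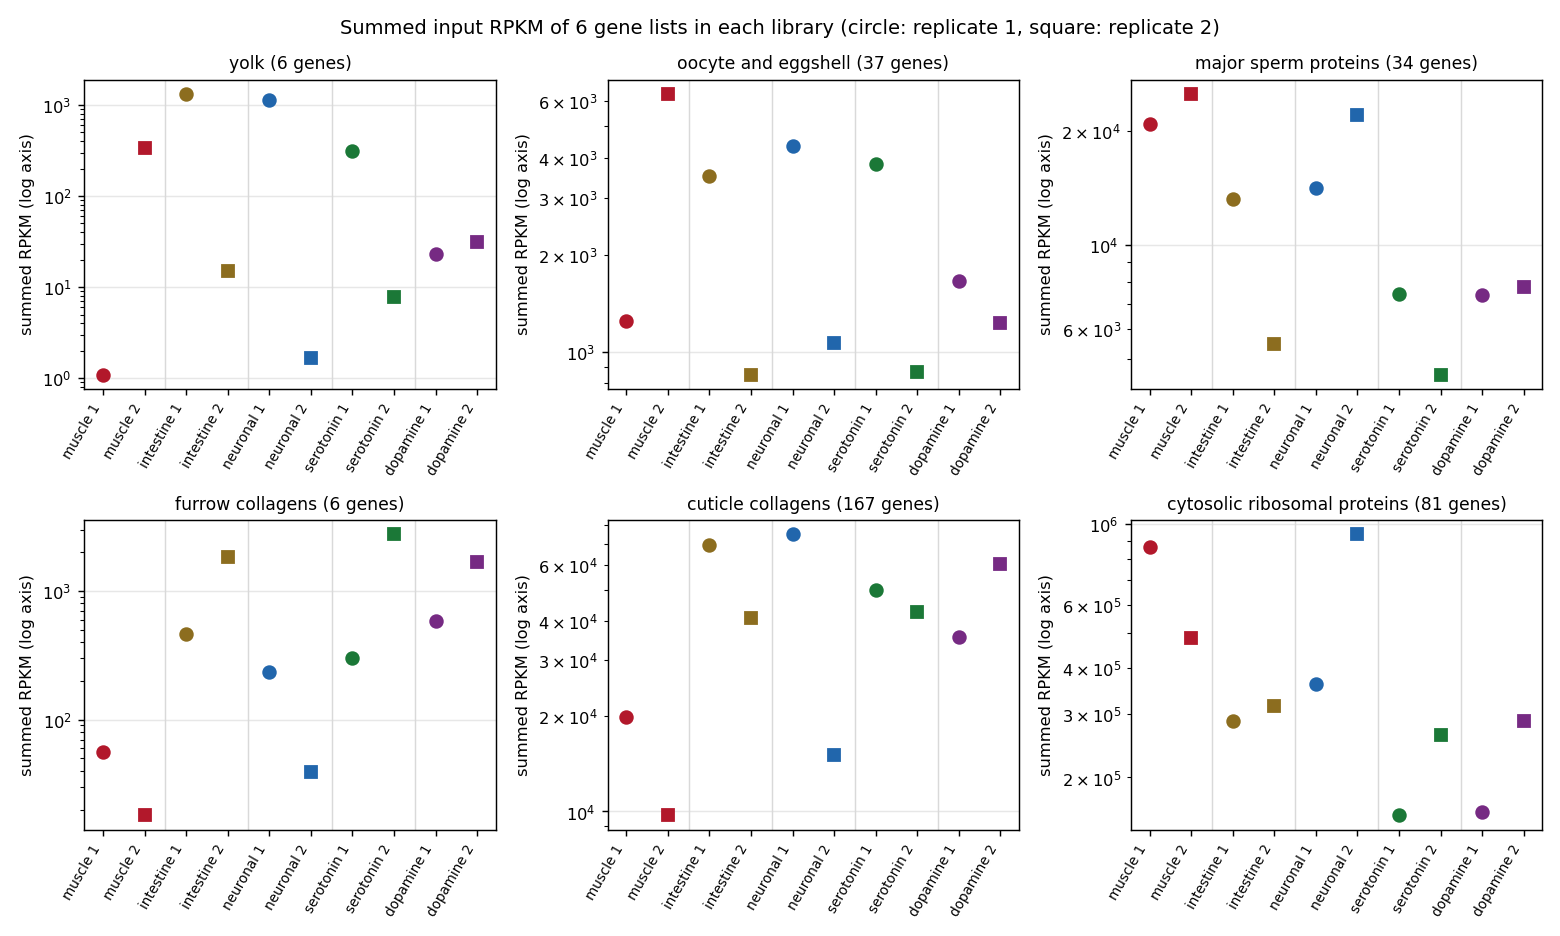
Summed RPKM (log axis) of 6 gene lists in each input library, with circles for replicate 1 and squares for replicate 2 and colours for strains. Yolk runs from 1.09 RPKM in muscle replicate 1 to 1326 RPKM in intestine replicate 1, and furrow collagens from 18 RPKM in muscle replicate 2 to 2750 RPKM in serotonin replicate 2.

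Furrow collagens and moulting genes were high in other libraries. The 6 furrow collagen genes, dpy-2, dpy-3, dpy-7, dpy-8, dpy-9 and dpy-10, build the circular furrows of the cuticle and are expressed early in each moulting cycle. They summed to 55.8 and 18 RPKM in muscle replicates 1 and 2, 466 and 1839 for intestine, 233 and 38.9 for neuronal, 300.4 and 2749.6 for serotonin and 580.1 and 1685 for dopamine. The 3 libraries above 1000 RPKM were replicate 2 of intestine, serotonin and dopamine, where yolk was 31 RPKM or less. As deposited, both muscle libraries and neuronal replicate 2 were below 60 RPKM. After rescaling, muscle replicate 1 and neuronal replicate 2 came to 178 and 141 RPKM, near serotonin replicate 1 (198) and neuronal replicate 1 (211). Muscle replicate 2 stayed low, at 16.3 RPKM. dpy-7 read 16.35 and 2.87 RPKM in muscle replicates 1 and 2, 93.6 and 445 for intestine, 54.7 and 10.6 for neuronal, 82.9 and 574 for serotonin and 90.2 and 399 for dopamine. Replicate 2 exceeded replicate 1 of serotonin over 2-fold, after rescaling, in 6 of 6 furrow genes, and likewise in dopamine, while in muscle 5 of 6 were over 2-fold lower in replicate 2. Over all 9896 genes those shares were 6.85% and 14.2% higher in serotonin and dopamine and 23.8% lower in muscle. The moulting and apical matrix genes, which shape and shed the cuticle, summed to 765 and 212 RPKM in muscle replicates 1 and 2, 1188 and 2212 for intestine, 777 and 761 for neuronal, 659.7 and 2270 for serotonin and 943 and 2484 for dopamine. Most of that sum in muscle replicate 1 and neuronal replicate 2 was 1 gene, cut-2, a cuticlin gene, at 694 and 709 RPKM, and after rescaling these 2 sums were the highest, 2439 and 2763 RPKM. mlt-10, a moulting cycle gene, read 4.09 and 2.47 RPKM in muscle replicates 1 and 2, 87.4 and 93.1 for intestine, 60.5 and 3.56 for neuronal, 21.2 and 99.8 for serotonin and 20.6 and 149.8 for dopamine. mlt-10 and the furrow genes shared their 3 top libraries. lin-42, the period-like gene whose level cycles with the moults, reached 91, 79.2 and 73.4 RPKM in replicate 2 of intestine, serotonin and dopamine, and 10.2 to 35.3 RPKM in the other 7 libraries; after rescaling muscle replicate 1 was highest, at 80.7 RPKM.

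The leading collagens, taken as the 5 highest of the 167 found in each library, differed between libraries and were shared by some. Replicate 2 of intestine and of dopamine had the same 5. bli-6 led in muscle replicate 1 and neuronal replicate 2, with 40.9% and 30.4% of all collagen RPKM. It read 8097 and 244 RPKM in muscle replicates 1 and 2, 1118 and 1064 for intestine, 1938 and 4562 for neuronal, 456 and 991 for serotonin and 319 and 1667 for dopamine. Those 2 libraries stood above all others in bli-6, but as deposited not in rol-8, a cuticle gene whose mutants roll, which reached 602 RPKM in dopamine replicate 2, against 526 RPKM in muscle replicate 1; after rescaling they were highest in rol-8 too, at 1676 and 1579.8 RPKM. The first collagen was col-124 in intestine replicate 1 and neuronal replicate 1, col-20 in muscle replicate 2, and col-71 in replicate 2 of intestine, serotonin and dopamine, where col-104 was second. col-106 led in replicate 1 of serotonin and dopamine. It read 25.6 and 272 RPKM in muscle replicates 1 and 2, 1480 and 259 for intestine, 1392 and 27 for neuronal, 7553 and 155 for serotonin and 2899 and 448 for dopamine. The adult-stage collagen genes col-7 and col-62 were also highest in serotonin replicate 1 and dopamine replicate 1: col-62 read not listed and 49.6 RPKM in muscle replicates 1 and 2, 243 and 5.83 for intestine, 209 and not listed for neuronal, 647 and 1.63 for serotonin and 981 and 6.85 for dopamine. Dopamine replicate 1 held 981 RPKM of col-62 with 69.5 RPKM of col-19 and 9.92 RPKM of vit-2, whereas neuronal replicate 1 held 209 RPKM of col-62 with 2543 RPKM of col-19. The sum of all collagens moved less than single genes, from 9713 RPKM in muscle replicate 2 to 74790 RPKM in neuronal replicate 1, as deposited, and 8822 to 67905 RPKM in the same 2 libraries after rescaling.

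**Figure D3:**
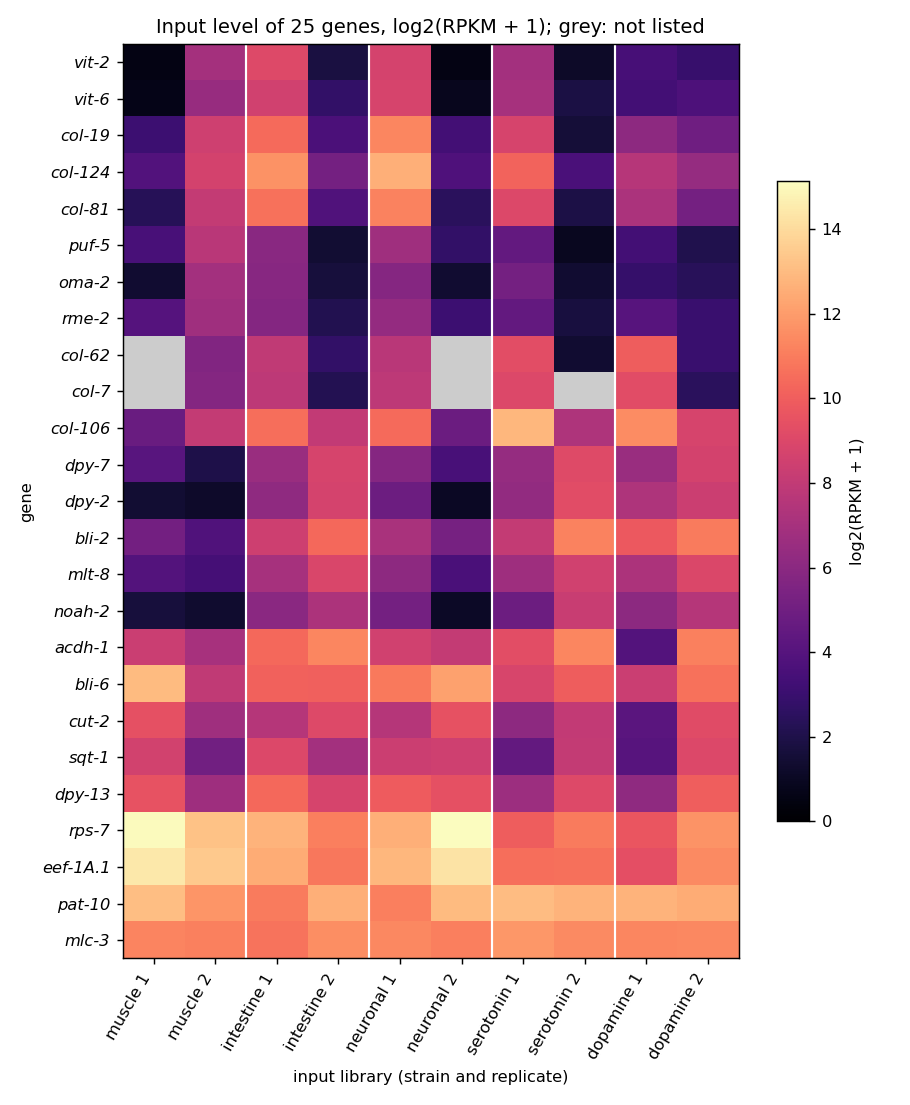
Level of 25 genes (rows) as log2(RPKM + 1) in the 10 input libraries (columns), with grey where a gene was not listed. Yolk, col-19 and oocyte genes are bright in muscle 2, intestine 1, neuronal 1 and serotonin 1, furrow and moulting genes in replicate 2 of intestine, serotonin and dopamine, and bli-6 and rps-7 in muscle 1 and neuronal 2.

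Sperm transcripts were present throughout. The 34 major sperm protein genes, which code for the cytoskeletal protein of crawling sperm and are near-identical copies whose single values are uncertain, summed to 20906 and 25054 RPKM in muscle replicates 1 and 2, 13252 and 5473 for intestine, 14161 and 22065 for neuronal, 7427 and 4542 for serotonin and 7391 and 7732 for dopamine. The highest sums were in both muscle libraries and neuronal replicate 2, and the lowest in serotonin replicate 2. The range was 5.52-fold as deposited and 25.2-fold after rescaling. The 59 other sperm genes summed to 4864 and 9548 RPKM in muscle replicates 1 and 2, 7188 and 7005 for intestine, 8373 and 5022 for neuronal, 16804 and 8165 for serotonin and 14862 and 9649 for dopamine, with replicate 1 of serotonin and dopamine on top, so the 2 sperm lists did not share their order as deposited; after rescaling both were highest in neuronal replicate 2 and then muscle replicate 1. nspd-1 and msd-4, among the highest of them, had a lowest, median and highest value of 349, 768 and 1853 RPKM and of 511, 717 and 1549 RPKM. spe-11, whose protein is carried by sperm into the egg, was at 4.25 and 1.78 RPKM in muscle replicate 1 and neuronal replicate 2, and at 49.6 to 163 RPKM elsewhere. fog-3, which directs germ cells to become sperm, was highest in replicate 2 of intestine and serotonin, at 27.2 and 25.2 RPKM. No major sperm protein gene of 31 tested and no other sperm gene of 51 tested differed among the strains (limma F test, 2.16% of all genes called).

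Ribosomal protein genes set muscle replicate 1 and neuronal replicate 2 apart. The list of 81 cytosolic ribosomal protein genes was taken by name and leaves out F54D7.7, at 105618 and 136076 RPKM in these 2 libraries. The 81 genes took 58.4 and 40.2 % of all listed RPKM in muscle replicates 1 and 2, 27.8 and 26.4 for intestine, 33 and 59.2 for neuronal, 13.3 and 22 for serotonin and 14.1 and 24.9 for dopamine. rps-7, of the small subunit, read 34368 and 9399 RPKM in muscle replicates 1 and 2, 6774 and 2174 for intestine, 6434 and 36124 for neuronal, 1007 and 1993 for serotonin and 811 and 3378 for dopamine. eef-1A.1, which codes for the elongation factor that brings aminoacyl-tRNA to the ribosome, read 23002 and 11150.1 RPKM in muscle replicates 1 and 2, 5794 and 1873 for intestine, 7327 and 20039 for neuronal, 1500.2 and 1538 for serotonin and 656 and 2801 for dopamine. Both genes were highest in muscle replicate 1 and neuronal replicate 2 and lowest in dopamine replicate 1. RPKM is a share of the library. The relative log expression factor of these 2 libraries was -1.67 and -1.86 (log2), against 0.14 to 0.89 in the other 8, and rescaling raises every gene there. Transcript length moved with the same libraries, but not with them alone. After rescaling, genes under 500 bases lay 0.41 and 0.69 (log2) above their mean over the libraries in muscle replicate 1 and neuronal replicate 2. Genes of 4000 bases and over lay at -0.43 and -0.61 there. Serotonin replicate 1, with the lowest ribosomal protein share (13.3%), had the same slant, at 0.28 and -0.31. Muscle replicate 2, intestine replicate 1 and neuronal replicate 1 had the opposite slant, with short genes at -0.28, -0.55 and -0.22 and long genes at 0.48, 0.56 and 0.53. The part of length in the results above and below was not tested. unc-52, the very long gene of the basement membrane proteoglycan perlecan, read 0.948 and 3.23 RPKM in muscle replicates 1 and 2, 36.5 and 34 for intestine, 25.9 and 0.651 for neuronal, 21.7 and 33.7 for serotonin and 24.3 and 36.5 for dopamine.

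The strains were then compared in 1 fit over the 10 libraries (limma-trend on log2(RPKM + 1), Benjamini-Hochberg adjusted p below 0.05). Of 9895 genes tested, 214 differed among the 5 strains (limma F test, 2.16%). That count did not hold. It was 0 after rescaling, where 1716 genes had p below 0.05 before adjustment and 2172 as deposited. edgeR called 0 on the recovered reads (1660 unadjusted) and DESeq2 1535. Leaving out any 1 of the 10 libraries moved the count over 1.5 times: it was 0 without intestine replicate 1, intestine replicate 2 or dopamine replicate 1, 51 to 101 without muscle replicate 1, serotonin replicate 1 or 2 or dopamine replicate 2, 629 without muscle replicate 2, and 1261 and 2632 without neuronal replicate 2 and 1. The 2 libraries that stood apart changed it too, to 409 as deposited and 0 rescaled when both were left out.

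Nearly all strain calls lay in muscle. Against the mean of the other 4 strains, 418 genes were lower (4.22%) and 6 higher (0.0606%) in muscle, with the median of all genes at -0.81. After rescaling that median was 0.04 and no gene passed (2130 unadjusted), and without muscle replicate 1 and neuronal replicate 2 there were 871 lower and 11 higher as deposited and 513 lower and 13 higher rescaled. Leaving out 1 library at a time gave 0 to 1958 lower genes: 0 without muscle replicate 2, intestine replicate 1 or intestine replicate 2, 16 without muscle replicate 1, 139 to 242 without any serotonin or dopamine library, and 891 and 1958 without neuronal replicate 1 and 2. Without muscle replicate 1 and neuronal replicate 2, 37 of the 42 named genes called in muscle passed as deposited and 26 rescaled. Every gene named below as called in muscle kept the sign of its difference in each of the 22 alternatives run. These genes were picked by their call in the same libraries, so the shared sign is no independent support. Each lost its call with rescaling and with edgeR.

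Cuticle genes were among those that fell in muscle, against 4.22% of all genes. Of 100 cuticle collagens tested, 26 fell in muscle and none rose, with a list median of -2.24. Furrow collagens fell in 4 of 6 (median -4.07), moulting and apical matrix genes in 6 of 15 (median -2.71) and hedgehog-related genes, many of which act in the epidermis and in moulting, in 6 of 18 (median -2.72). These medians compare with -0.81 for all genes and became -1.26, -3.10, -1.85 and -1.79 after rescaling. Without muscle replicate 1 and neuronal replicate 2 they were -2.87, -4.92, -3.01 and -3.24 as deposited and -2.55, -4.57, -2.66 and -2.90 rescaled. Muscle is then 1 library, assumed to vary like the other strains. After rescaling the furrow median of log2(RPKM + 1) was 5.25 and 1.80 in muscle replicates 1 and 2, against 4.86 to 8.10 in the other strains. The cuticle collagen median was 6.80 and 5.26, against 5.97 to 8.25, so only muscle replicate 2 was below the others in both lists. Hedgehog-related genes were lower in both (3.85 and 2.57, against 4.28 to 6.54). Moulting genes were at 3.13 and 2.91, with neuronal replicate 2 at 3.04 and the rest higher. dpy-2 read 1.78 and 1.34 RPKM in muscle replicates 1 and 2, 71.5 and 416 for intestine, 29 and 1.06 for neuronal, 76.6 and 612 for serotonin and 158 and 335 for dopamine, a log2 difference of -5.16 ± 0.99 (SE; limma, adjusted p = 0.0257). Neuronal replicate 2 was as low as muscle in dpy-2, so the groups overlap, and without that library and muscle replicate 1 the difference was -5.76 (limma, adjusted p = 0.00517). col-110 differed by -5.32 ± 0.94 (SE; limma, adjusted p = 0.0239), bli-2, a collagen of the adult cuticle struts, by -4.43 ± 0.81 (SE; limma, adjusted p = 0.0239), noah-1, an apical matrix protein, by -4.21 ± 0.96 (SE; limma, adjusted p = 0.0294) and wrt-10, hedgehog-related, by -3.88 ± 0.90 (SE; limma, adjusted p = 0.0314). As deposited, muscle did not lie below all the other libraries in col-110, so the groups overlap there too. In the lists of intestine genes, 5 of 23 markers fell, such as cpr-4, a cathepsin B-like protease (31.4 ± 25.3 RPKM in muscle, SD, n = 2, and 186 ± 201 to 888 ± 208 RPKM in the other strains). In cpr-4 a library of the other strain with the lowest mean lay below the higher muscle library, so the groups overlap. Also called lower were 4 of 16 stress and immune genes, among them the lysozyme gene lys-7. So were 4 of 14 feeding and lipid genes, among them the fatty acid desaturase gene fat-6. After rescaling the intestine marker median was 7.30 and 5.66 in muscle replicates 1 and 2, against 6.73 to 8.60 in the other strains. The feeding median was 7.51 and 6.05, against 6.25 to 8.35, so only muscle replicate 2 was below the others in both lists. The stress median was 4.77 and 5.63, against 5.04 to 6.78, so there only muscle replicate 1 was.

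**Figure D4:**
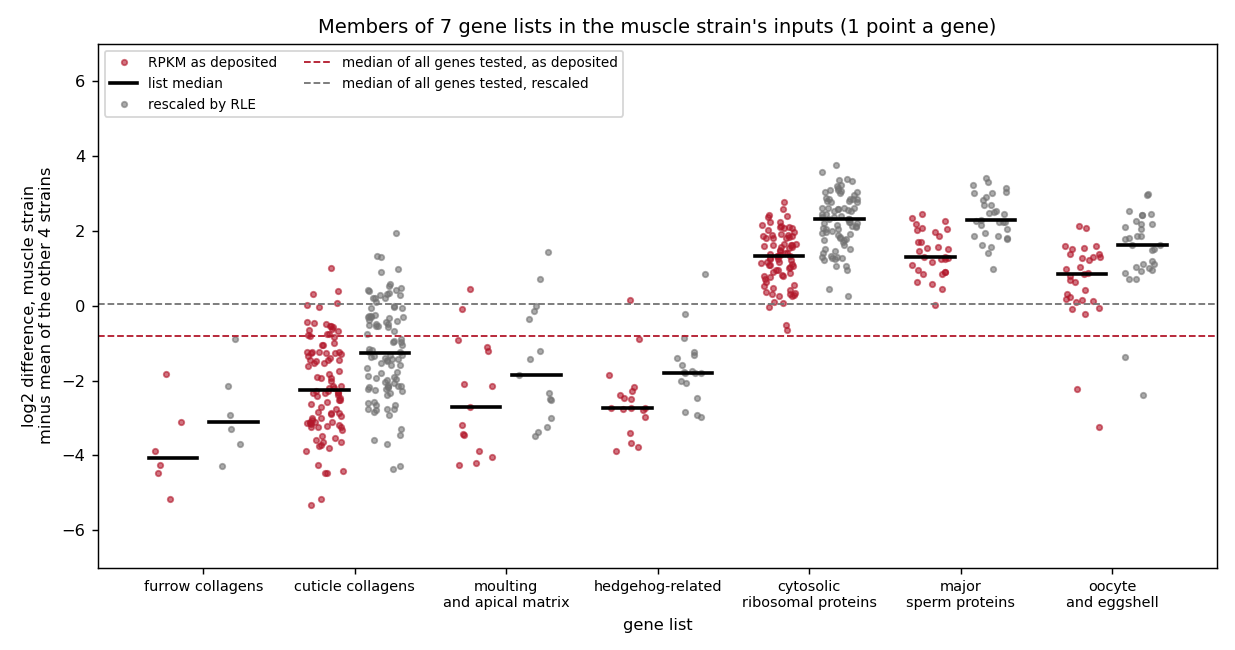
Log2 difference of the muscle strain's inputs minus the mean of the other 4 strains (vertical axis) for each tested member of 7 gene lists, as deposited in red and rescaled in grey, with black bars at list medians and dashed lines at the medians of all genes, -0.81 and 0.04. Furrow collagen medians lie at -4.07 and -3.10 and ribosomal protein medians at 1.34 and 2.32.

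As deposited, 223 of 9895 genes were lower in both muscle libraries than in any other, beside 4 in dopamine to 184 in neuronal for the same order. Among called genes of this order, the 4 with the lowest differences are given first, led by little-described ones. Called genes outside this order had lower differences, such as dpy-2 (-5.16) and col-110 (-5.32). F57H12.6 read 8.12 and 7.91 RPKM in muscle replicates 1 and 2, 258 and 859 for intestine, 46.2 and 11.6 for neuronal, 139.8 and 1608 for serotonin and 596 and 1034 for dopamine, a log2 difference of -4.83 ± 0.82 (SE; limma, adjusted p = 0.0239). Both muscle values lay below all 8 others, but neuronal replicate 2 came within 4 RPKM of them. T19C3.2 (-4.61 ± 0.76 (SE; limma, adjusted p = 0.0239)), C05E7.1 (RefSeq symbol gmap-2; -4.56 ± 0.74 (SE; limma, adjusted p = 0.0239)) and the collagen gene col-173 (-4.47 ± 0.73 (SE; limma, adjusted p = 0.0239)) were the other 3 of the 4 with the lowest differences. Y51F10.7 and F56C9.7 (nspg-6) were among the 8 genes of smallest F test p and had log2 differences of -4.02 and -4.72 in muscle. Y51F10.7 read 28.3 and 41.7 RPKM in muscle replicates 1 and 2, 545 and 990 for intestine, 195 and 26.2 for neuronal, 1722 and 1497 for serotonin and 1714 and 923 for dopamine. Neuronal replicate 2 lay below both muscle libraries in Y51F10.7, so the strains overlap in this gene. F56C9.7 was also outside the order above, with muscle not below all the other libraries.

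The 6 genes that rose in muscle were eef-1A.1, eef-1B.1, rla-0, rpl-5, daf-21 and F23A7.8. The first 2 code for translation elongation factors, rla-0 and rpl-5 for ribosomal proteins of the large subunit, and daf-21 for the cytosolic Hsp90 chaperone. rla-0 read 28168 and 8882 RPKM in muscle replicates 1 and 2, 2587 and 1554 for intestine, 9996 and 19369.7 for neuronal, 889 and 1399.8 for serotonin and 425 and 1846 for dopamine, a log2 difference of 2.79 ± 0.62 (SE; limma, adjusted p = 0.0294). eef-1A.1, listed above, differed by 2.41 ± 0.63 (SE; limma, adjusted p = 0.0454). In both genes neuronal replicate 2 exceeded muscle replicate 2, and in rla-0 neuronal replicate 1 did too, so the strains overlap. Of 81 ribosomal protein genes 2 were called higher in muscle, where 0.0606% of all genes were, and their list median was 1.34 in muscle and 1.2 in neuronal, against -1.18 in serotonin and -1.20 in dopamine; the muscle value was 2.32 after rescaling, and without muscle replicate 1 and neuronal replicate 2 it was 1.21 as deposited and 1.53 rescaled. Without those 2 libraries 5 of the 6 lost their call as deposited: rla-0 differed by 2.07 (limma, adjusted p = 0.198), eef-1A.1 by 2.07 (limma, adjusted p = 0.235) and daf-21 by 1.82 (limma, adjusted p = 0.146), with eef-1B.1 and rpl-5 at adjusted p of 0.214 and 0.155 (limma). daf-21 was the 1 gene of the 6 with both muscle libraries above the other 8. As deposited, 44 of all 9895 genes had that order in muscle, beside 12 in neuronal to 322 in serotonin. daf-21 read 2641 and 2088 RPKM in muscle replicates 1 and 2, 922 and 381 for intestine, 1179.6 and 1886 for neuronal, 320.2 and 457 for serotonin and 419.7 and 502 for dopamine. After rescaling its level in neuronal replicate 2 lay above that in muscle replicate 2.

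F23A7.8, protein coding in RefSeq and on chromosome X, had a different pattern. It read 2077 and 4189.9 RPKM in muscle replicates 1 and 2, 181 and 217 for intestine, 393 and 4406 for neuronal, 533 and 217 for serotonin and 322 and 205 for dopamine, a log2 difference of 2.92 ± 0.73 (SE; limma, adjusted p = 0.0392) for muscle. Neuronal replicate 2 was the highest library, and it exceeded neuronal replicate 1 by 3.48 on the log2 scale, more than muscle differed from the rest. After rescaling the muscle difference was 3.90 and the adjusted p 0.0955 (limma), and without muscle replicate 1 and neuronal replicate 2 it was 3.86 as deposited (limma, adjusted p = 0.00485). ZC155.8 (srpr-2.1), a short gene of the same list, read 246 and 182 RPKM in muscle replicates 1 and 2, 33.5 and 54.3 for intestine, 647 and 213 for neuronal, 12.34 and 31.9 for serotonin and 375 and 18.5 for dopamine, with neuronal replicate 1 and dopamine replicate 1 on top as deposited. After rescaling muscle replicate 1 and neuronal replicate 2 were highest in ZC155.8, at 785 and 774 RPKM, against 587 RPKM in neuronal replicate 1.

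In dopamine 1 gene passed. Y82E9BR.22, a protein-coding gene on chromosome III, read 98.4 and 108 RPKM in muscle replicates 1 and 2, 110.4 and 147 for intestine, 100.2 and 142 for neuronal, 106.4 and 51.9 for serotonin and 3.03 and 1.98 for dopamine. Both dopamine libraries lay at 3.03 RPKM or less and the other 8 at 51.9 RPKM or more, with a log2 difference of -4.92 ± 0.60 (SE; limma, adjusted p = 0.00495). The call was 1 of 9895 genes (0.0101%), and 4 of 9895 had both dopamine libraries below the other 8 as deposited. After rescaling the difference was -5.51 and the adjusted p 0.0746 (limma), and over all alternatives the adjusted p ranged from 1.27e-05 to 0.423. The call was lost without dopamine replicate 1 or 2, with rescaling and with edgeR; DESeq2 gave it no adjusted p.

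**Figure D5:**
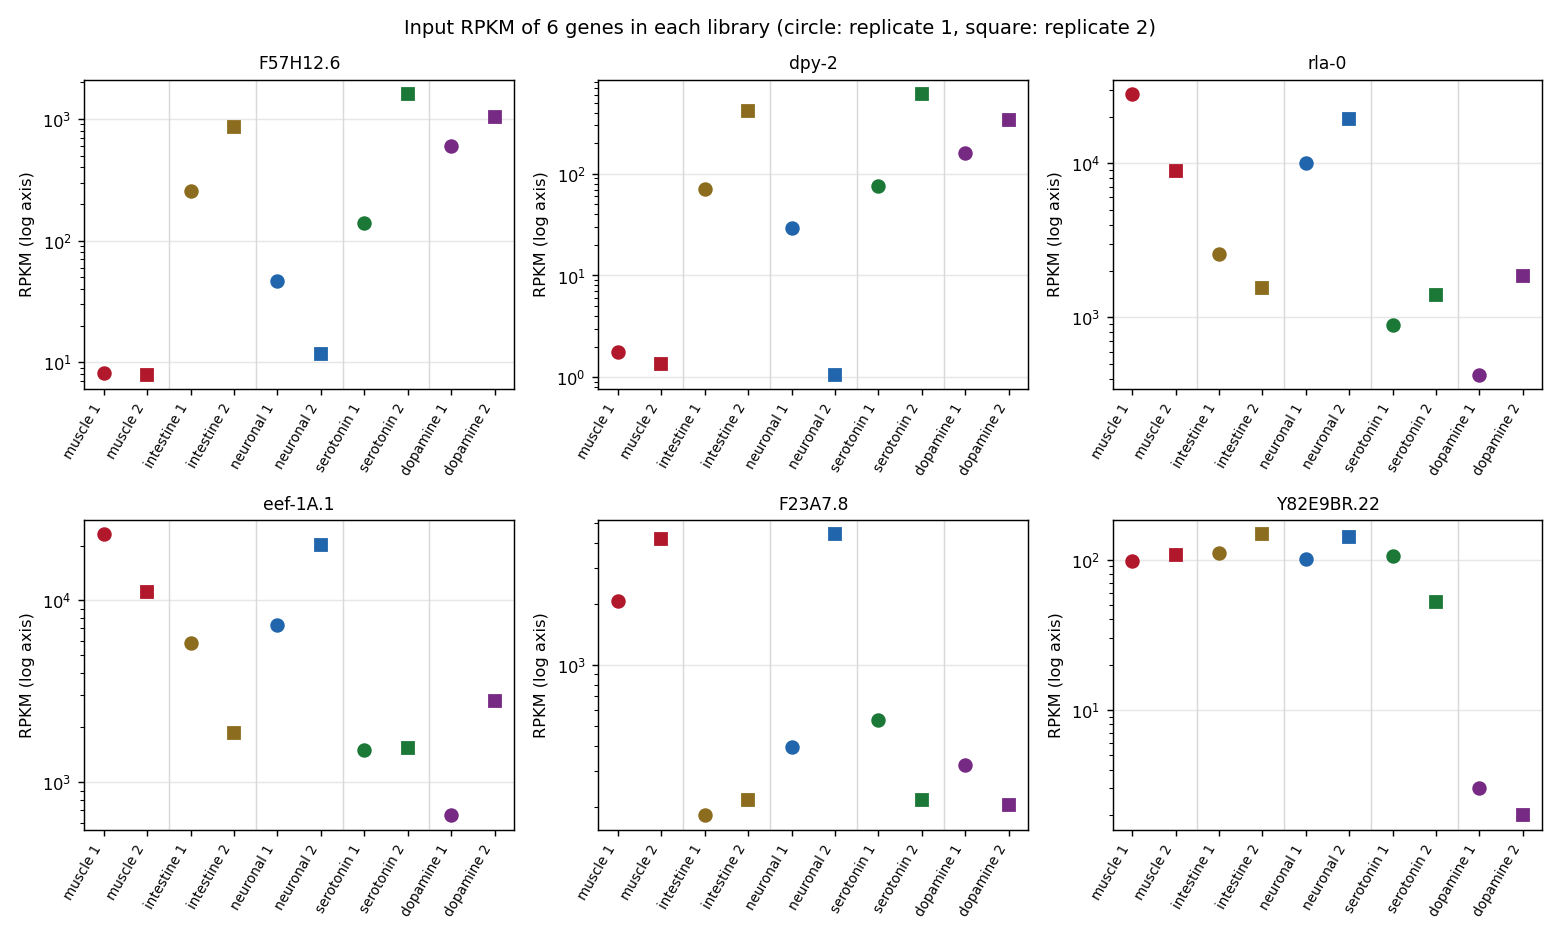
RPKM (log axis) of 6 genes in each input library, with circles for replicate 1, squares for replicate 2 and colours for strains. Y82E9BR.22 lies at 3.03 and 1.98 RPKM in dopamine and at 51.9 RPKM or more elsewhere, while eef-1A.1, rla-0 and F23A7.8 are high in both muscle libraries and in neuronal replicate 2. In rla-0 neuronal replicate 1 lies above muscle replicate 2 too.

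Intestine, neuronal and serotonin had no gene past the threshold in either direction (0% of 9895; limma). At an unadjusted p below 0.05 there were 187, 1712 and 1087 genes, edgeR called 0 in each, and DESeq2 called 3, 166 and 117. Without neuronal replicate 1 limma called 24, 2524 and 529. The neuronal median over all genes was -0.92, as low as that of muscle, while intestine, serotonin and dopamine lay at 0.50, 0.59 and 0.71.

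Other genes separated the 2 replicates of a strain. acdh-1, an acyl-CoA dehydrogenase gene that responds to diet, read 310 and 134 RPKM in muscle replicates 1 and 2, 1339 and 2549 for intestine, 374 and 264 for neuronal, 643 and 2595 for serotonin and 14.5 and 2246 for dopamine. Dopamine replicate 1 was the single low library, and dopamine replicate 2 was near the top. The metallothionein gene mtl-2 read 1386 and 154 RPKM in muscle replicates 1 and 2, 196 and 1224 for intestine, 82.3 and 2139.8 for neuronal, 116 and 1634 for serotonin and 94.7 and 1593 for dopamine, high in muscle replicate 1, neuronal replicate 2 and in replicate 2 of intestine, serotonin and dopamine, and below 200 RPKM in the other 5. Its relative mtl-1 had another order, with 119.9, 142 and 127 RPKM in serotonin replicates 1 and 2 and dopamine replicate 1 and 28.8 RPKM or less elsewhere. sqt-1, a collagen gene, read 395 and 32.9 RPKM in muscle replicates 1 and 2, 511 and 119.6 for intestine, 333 and 358 for neuronal, 21.9 and 263 for serotonin and 15.3 and 509 for dopamine. dpy-13, another, was lowest in the same 3 libraries, muscle replicate 2, serotonin replicate 1 and dopamine replicate 1, with 101 and 70.1 RPKM in the last 2, against 443 RPKM or more elsewhere. mir-262, listed as a microRNA gene, spanned 0.426 RPKM in dopamine replicate 2 to 755 RPKM in neuronal replicate 1. nlp-28, an epidermal antimicrobial peptide gene, was at 1.1 and 1.44 RPKM in muscle replicate 1 and neuronal replicate 2 and 15.3 to 159 RPKM elsewhere. hsp-16.2, the small heat shock gene, stayed between 1.51 and 33.2 RPKM.

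Some genes of muscle and chromatin moved over a narrow range as deposited. mlc-3, a myosin light chain gene, had a lowest, median and highest value of 1697, 2613 and 3734 RPKM. act-4, an actin gene, had 592, 1435 and 2221 RPKM, and his-72, a histone H3.3 gene, 164, 240 and 335 RPKM. The summed body wall muscle markers ran over a 1.44-fold range, beside a 5.97-fold range of the ribosomal protein sum. Rescaling widened both, to 7.44-fold and 39.4-fold, with muscle replicate 1 and neuronal replicate 2 highest, and mlc-3 to 6.40-fold. The narrow range therefore holds only for library shares. Among the body wall muscle markers it holds for the sum, not for the typical member. As deposited, their median log2(RPKM + 1) was 8.67 in neuronal replicate 1 and 7.02 in dopamine replicate 1. The genes of the rarest neurons were near the listing limit: tph-1, the serotonin synthesis gene, was listed in 4 inputs with at most 3.47 RPKM in serotonin replicate 1, and dat-1, the dopamine transporter gene, in 8 with at most 2.34 RPKM.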

How the data were processed

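Whole-animal input RNA was sequenced in 10 libraries, 2 of each of 5 strains, grouped by the labels. The submitters' processing notes name STAR and HTSeq, with no role given; versions and genome build are not given in the sources used here. Per the file headers, each deposited table holds RPKM and counts of both replicates under repeated column names, taken as replicates 1 and 2 from the header line above them. Each value given for replicate 1 or 2 rests on that header; no library lay nearest to its own replicate, and whether the columns were placed as labelled could not be checked here. RPKM, the authors' deposited normalized level, is the unit of every comparison. The deposited count column of the intestine inputs held whole reads; in the other strains the deposited count columns were a scaled signal in at least 1 library (5 libraries in all), and whole reads were recovered as multiples of a step, with 100% of values whole. RPKM was proportional to these reads. The 20 other per-sample columns were not used, and TRAP RPKM served only to check which genes are listed.

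Levels were compared with limma 3.58.1 (R 4.3.3), trend on log2(RPKM + 1), over the 9895 genes listed in all 10 inputs with a mean of at least 1 RPKM: an F test over the strains and each strain against the mean of the other 4, Benjamini-Hochberg adjusted over all genes at 0.05. Because the files hold RPKM for all strains, this test was the main one; edgeR 4.0.16 and DESeq2 1.42.0 on recovered reads were alternatives, beside rescaling, pseudocounts, filters, each library left out, the replicate block and no neuronal strain. A gene not listed counts as 0 in sums. Near-identical copies (major sperm proteins, vitellogenins, some collagens and histones) and overlapping genes may share reads. Depth was 4.46 to 239.7 M reads, with a median of 44 reads per listed gene in neuronal replicate 1, where counting error is largest.

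The members, gene lists and tests were chosen with earlier results of these data known. Genes were named by a rule: highest mean, smallest F test p, largest called differences with both libraries outside the other 8, largest replicate differences, and the highest or smallest-p members of each list, plus chosen stage and tissue genes. The leading collagens of each library were taken by rank after their values were seen. RefSeq (WBcel235) gave symbols, biotypes and chromosomes; 16725 names matched. Of the names, 11 had become dates and were replaced by gene IDs.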

Additional observations from a re-analysis of the deposited data

How the results depend on the processing

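All 43 named gene differences kept their sign in each alternative that gave a value, and 43 lost their call with rescaling and with edgeR. The genes were picked by their call in the same libraries. That none of the 10 libraries lay nearest to its own replicate also held by Pearson r, over 4364 genes with 100 or more reads in every library, over 7352 genes of at least 10 RPKM, and without ribosomal and translation genes or collagens (chosen after seeing the data). The count of 214 genes differing among strains became 0 with rescaling, a pseudocount of 0.1, genes listed in 5 tables or edgeR, 448 with a pseudocount of 5, 1444 without the neuronal strain, 1535 with DESeq2, 409 and 0 (deposited and rescaled) without muscle replicate 1 and neuronal replicate 2 (chosen after seeing the data), and 0 to 2632 leaving out 1 library. Lower genes in muscle (418) became 0 with rescaling or edgeR, 196 at a pseudocount of 0.1, 2114 with genes listed in 5 tables, 2768 without the neuronal strain, 900 with DESeq2, 871 and 513 without those 2 libraries, and 0 to 1958 leaving out 1. Higher genes in muscle (6) became 0 with rescaling or edgeR, 1 and 13 at pseudocounts of 0.1 and 5, 10 at a mean of 10 RPKM, 28, 140 and 416 with genes in 5 tables, without the neuronal strain and with DESeq2, 11 and 13 without those 2 libraries, and 0 to 80 leaving out 1. DESeq2 called 3 (intestine), 166 (neuronal), 117 (serotonin) and 0 (dopamine) genes; a pseudocount of 0.1 gave 1 in neuronal, dropping the neuronal strain 2 in serotonin, rescaling and edgeR 0 in dopamine, and leaving out 1 library 0 to 24 (intestine), 0 to 2524 (neuronal), 0 to 529 (serotonin) and 0 to 185 (dopamine). Rescaling moved the muscle medians of hedgehog-related, ribosomal protein and major sperm protein genes to -1.79, 2.32 and 2.29, and the sperm value was 2.06 rescaled without those 2 libraries. The oocyte median in muscle, 0.85, was -1.20 to 2.85 leaving out 1 library, reversed without muscle replicate 2. Replicate numbers did not pair the samples throughout. Over 10 pairs of strains, same-numbered deviations correlated at -0.66 to -0.315 in pairs with muscle and at -0.06 to 0.45 among the other strains. The correlation was above 0.1 in 5 of the 10 pairs. With the replicate block 200 genes differed among strains and 305 were lower and 9 higher in muscle. Outside the changes given, the cause was not tested. At 44 and 70 reads per listed gene, neuronal replicates 1 and 2 limit low genes.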
